A study of Mus musculus with 6 samples.

Results

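The genes followed here encode the receptors of the postsynaptic membrane, the scaffolds that hold them there and the adhesion molecules that join the membrane to the presynaptic terminal. They were chosen by name, as 42 genes, and every probe that the platform annotation gives to exactly 1 of them was taken. Of the 42 genes, 29 had a probe, with 30 probes among the 6856 of the array. A fit needed at least 2 values in each dye orientation, which 24 of these 30 probes and 23 of the 29 genes passed. Camk2b was the 1 gene with 2 probes. Of the 13 genes without a probe, Grm2, Grm3, Grm5 and Grm7 are metabotropic glutamate receptors, Nlgn1, Nlgn2 and Nlgn3 are neuroligins, and Grin1, Glra2, Shank1, Shank2, Dlgap1 and Nrgn make up the rest. These 13 have no array values, and those of them found by symbol enter the promoter search only.

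The samples were neocortex RNA of mouse embryos on a C57BL/6 background at embryonic day 14. Each of 6 arrays of 2 colours carried RNA of 1 null mutant embryo, a genotype called synaptically silent in the labels, against the same pool of RNA from 6 animals without the mutation. The mutant was labelled with cy3 on replicates 1, 2 and 3 and with cy5 on replicates 4, 5 and 6. The pool is 1 control sample, so a ratio is compared with 0 and the spread between wild-type animals does not enter. The mutants are described as biological replicates.

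At an excitatory synapse, glutamate opens AMPA, NMDA and kainate receptors, which are ion channels built of subunits, and metabotropic receptors act through G proteins. Scaffold proteins of the Dlg, Dlgap, Shank and Homer families bind the tails of these receptors and of each other and form the postsynaptic density. At an inhibitory synapse, GABA and glycine receptors are anchored by gephyrin. Neuroligins of the postsynaptic side bind neurexins of the terminal. At the age studied, the neocortex is making its neurons, and few synapses have formed. Several of these subunits are known to be made in embryonic neurons ahead of synapses.

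A positive log ratio is read here as more RNA in the mutant, and base 2 is assumed, since the table states neither the base nor the direction. The direction is likely and not settled. Its basis is Xist, which female cells make from their silenced X chromosome and which stood at 0.61, 0.71, 0.31 and 0.24 on replicates 1 to 4 and at -3.17 and -2.58 on replicates 5 and 6. A male makes almost no Xist and lies far below a pool that holds females, and a female lies at or a little above a pool of both sexes. Turned, replicates 1 to 3 would lie a little below the pool, which matches neither case closely. A female could still fall there through noise of the probe. The labels do not give the sexes of the embryos and the pool. Counts and the estimates of the genes described at length are therefore also given with replicates 1 to 3 turned, the reading in which every array holds cy5 over cy3. Turning changes the sign of every value on replicates 1 to 3. Between 21 and 29 of the 30 probes had a value on an array, from 70.0% on replicate 3 to 96.7% on replicates 5 and 6, and 18 of 30 (60.0%) had a value on all 6 arrays, against 54.9% of all probes. Replicates 3 and 4 stood apart from the others. Over all probes the standard deviation was 1.09 and 0.62 there and between 0.35 and 0.52 on the other 4 arrays, and the correlation of this pair, of opposite dyes, was 0.590 as deposited and -0.590 in the turned reading. Replicate 3 correlated with replicates 1 and 2 of its own orientation at -0.196 and -0.190, and replicate 4 with replicates 5 and 6 of its own at -0.257 and -0.080. Among the receptor, scaffold and adhesion genes, results that rest on replicates 3 and 4 are given with and without them. The labels do not say whether the embryos came from separate litters, and the p-values measure the spread between these arrays. In tissue RNA, fewer cells of a type and less RNA per cell cannot be told apart.

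No receptor, scaffold or adhesion gene differed between mutant and pool past the threshold. In limma, 0 of the 24 fitted probes had an adjusted p under 0.05, as did 0 of all 4958 probes tested (0.0%), and with replicates 1 to 3 turned the count was again 0 of 24, against 0 of 4958 (0.0%). At an unadjusted p under 0.05 there were 2 of the 24 probes, those of Dlg3 and Homer2, where 1.77% of all probes lay. With replicates 1 to 3 turned there was 1 of 24, that of Gria3, where 4.6% of all probes lay. Of the 23 genes, 11 had an estimate above 0 and 12 below, with a median of -0.047, beside 43.1% above 0 and a median of -0.034 over 4414 genes fitted. In the turned reading 16 of 23 lay above 0 with a median of 0.085, beside 53.2% and 0.016 over all genes. The standard errors of the estimates ran from 0.11 for Camk2b to 0.44 for Homer2. Gphn and Dlg2 were above 0 on all 6 arrays, which held for 1.9% of all fitted probes on every array with a value. None of the 24 was below 0 on every array, where 0.827% of all probes were. In the turned reading none of the 24 kept 1 sign throughout, where 3.89% of all probes were above 0 and 3.01% below on every array.

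**Figure D1:**
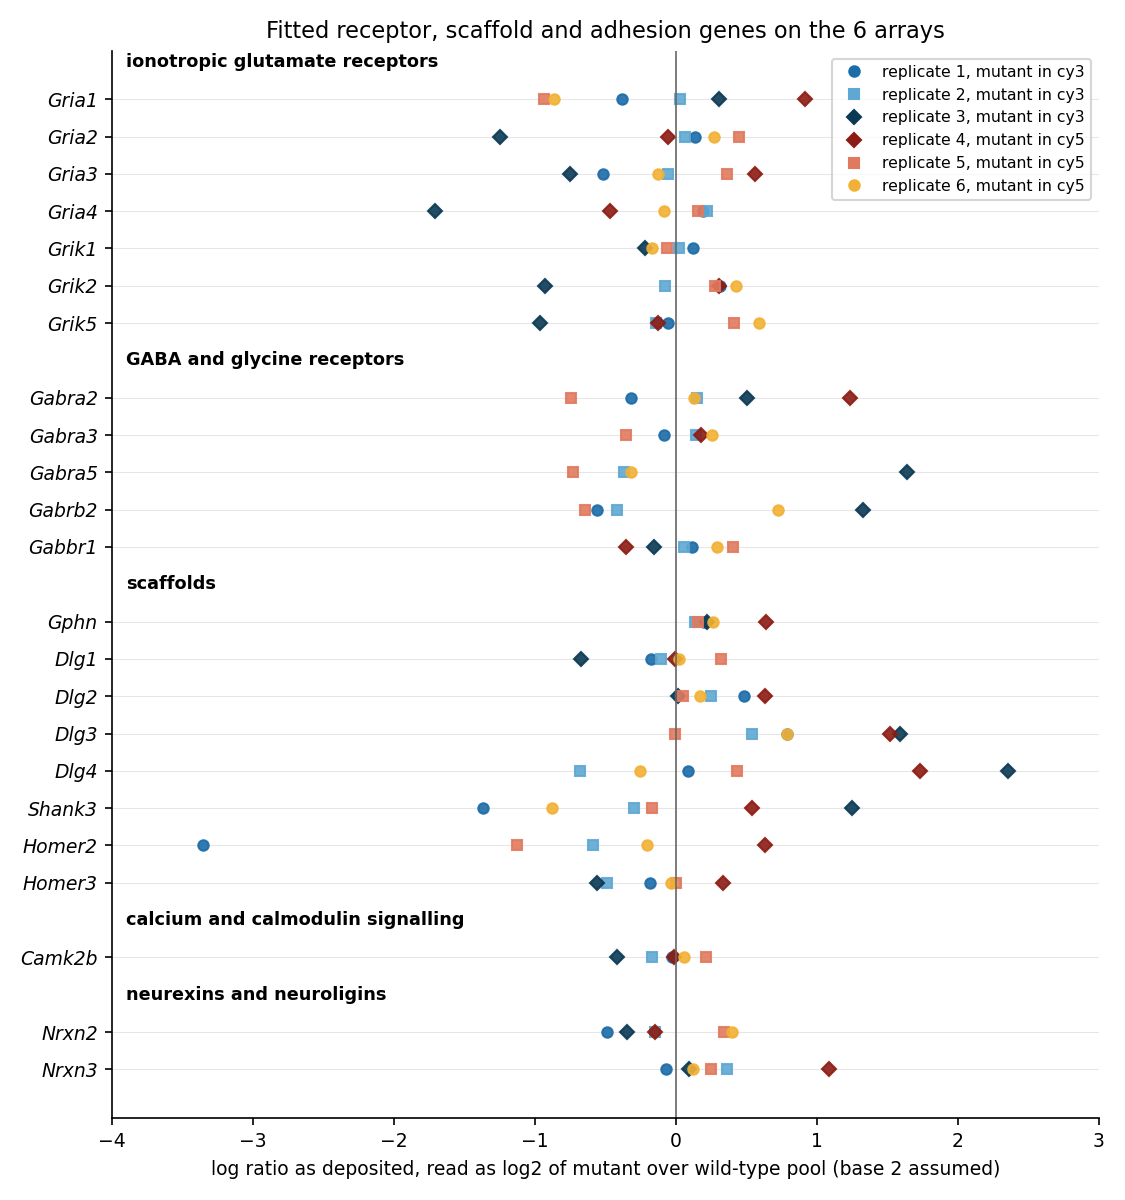
Log ratio of each of the 23 fitted genes (rows, by role) on each array, with the log ratio as deposited on the horizontal axis and 1 point per replicate, in blue for the mutant in cy3 and in red to yellow for the mutant in cy5. Most values lie within 1 of 0, and those beyond 1 come mainly from replicates 3 and 4, with the lowest point, -3.35, that of Homer2 on replicate 1.

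Among the ionotropic glutamate receptors, 7 of 10 genes with a probe could be fitted, and 6 of the 7 had estimates below 0. The estimates lay between -0.28 and 0.052, none was past the threshold, and 5 of the 7 lay above 0 in the turned reading. Gria1, Gria2, Gria3 and Gria4 encode the subunits of the AMPA receptor, which carries most fast excitatory current. Gria2 sets the calcium permeability of the channel. It stood at 0.13, 0.066 and -1.25 with the mutant in cy3 and at -0.057, 0.45 and 0.27 with the mutant in cy5. Replicate 3 lay far below the other 5 arrays, which lay between -0.057 and 0.45. Its estimate was -0.065 ± 0.20 (SE, n = 6), and 0.16 without replicate 3. Gria4, a subunit found early in development, showed the same shape, at 0.19, 0.22 and -1.71 and then -0.47, 0.15 and -0.085. Again replicate 3 lay lowest and replicate 4 next. The estimate of -0.28 ± 0.27 (SE, n = 6; limma adjusted p = 0.921) became 0.035 without replicate 3 and 0.12 without replicates 3 and 4.

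Gria1 went the other way on the same arrays. It lay at -0.38, 0.031 and 0.31 with the mutant in cy3 and at 0.91, -0.93 and -0.86 with the mutant in cy5, so that replicates 3 and 4 were the highest and replicates 5 and 6 the lowest. Over all 6 arrays the estimate was -0.15 ± 0.26 (SE, n = 6; limma adjusted p = 0.921). Without replicates 3 and 4 it was -0.54 ± 0.094 (SE, n = 4; limma adjusted p = 0.3), and without replicate 5 it was 0.0051. Turned, it was -0.14 ± 0.26 (SE, n = 6). Gria3 stood at -0.52, -0.055 and -0.75 in cy3 and at 0.56, 0.36 and -0.12 in cy5. All its cy3 arrays were below 0 while 2 of 3 cy5 arrays were above, and the ranges of the orientations overlapped. As deposited the estimate was -0.088 ± 0.15 (SE, n = 6), and in the turned reading it was 0.35 ± 0.15 (SE, n = 6; limma adjusted p = 0.972), the smallest unadjusted p among the 23 genes in that reading, at 0.0477.

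The kainate receptor genes Grik2 and Grik5 shared the low value of replicate 3. Kainate receptors modulate release and excitability, and Grik5 encodes a subunit that needs a partner such as that of Grik2 to form a channel. Grik5 had -0.058, -0.14 and -0.96 in cy3 and -0.13, 0.41 and 0.59 in cy5. Its cy3 values were all below 0 and 2 of its 3 cy5 values were the highest, with an estimate of -0.047 ± 0.17 (SE, n = 6) and a turned estimate of 0.34 ± 0.17 (SE, n = 6; limma adjusted p = 0.972). Without replicates 3 and 4 the first was 0.20. Grik2 had 0.31, -0.080 and -0.93 in cy3 and 0.31, 0.28 and 0.43 in cy5, so that 4 of 6 arrays lay above 0 and replicate 3 far below the others. The estimate was 0.052 ± 0.17 (SE, n = 6), and -0.084 without replicate 1, and the turned estimate was 0.28 ± 0.17 (SE, n = 6). Of the probes on replicate 3, 16.4% lay below Grik2 and 14.8% below Grik5. For Gria2 and Gria4 these shares were 4.75% and 0.605%. Grik1 had the narrowest range of the 7, from -0.22 to 0.12 over 5 arrays, and an estimate of -0.073 ± 0.13 (SE, n = 5).

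The NMDA receptor, the calcium-permeable receptor whose opening needs both glutamate and depolarisation, had 3 genes with a probe and none with enough values for a fit. Grin2b, the GluN2 subunit known to prevail before birth, had -0.06 on replicate 2 and 0.66 and 0.68 on replicates 5 and 6. Both cy5 values lay close together, and with 1 cy3 value the orientations could not be compared. Grin2a, the subunit of mature synapses, had -0.21 on replicate 2 and 1.47, -0.27 and -0.26 on replicates 4, 5 and 6, with 3 of its 4 values close together and replicate 4 far above them. Grin2d had values on replicates 5 and 6 only, at -0.75 and 0.80, on opposite sides of 0.

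Of the genes for GABA and glycine receptors, 7 of 8 had a probe and 5 were fitted. All 5 estimates lay above 0, from 0.026 to 0.16, with none past the threshold and each smaller than its standard error. In the turned reading 2 of 5 lay above 0. Gabra2, an alpha subunit of the GABA-A receptor made in embryonic forebrain, had the largest of these estimates. Its values were -0.32, 0.15 and 0.50 in cy3 and 1.23, -0.74 and 0.13 in cy5, with replicates 3 and 4 the highest. The estimate of 0.16 ± 0.25 (SE, n = 6) became -0.20 without these arrays, and the turned estimate was 0.048 ± 0.25 (SE, n = 6). Gabrb2, a beta subunit of the same receptor, had -0.56, -0.42 and 1.33 in cy3 and -0.64 and 0.72 on replicates 5 and 6, so that 3 arrays lay below 0 and 2 above. Its estimate was 0.079 ± 0.35 (SE, n = 5), or -0.22 without replicate 3.

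Gabra5, an alpha subunit known from receptors outside synapses, stood at -0.37 and 1.64 on replicates 2 and 3 and at -0.73 and -0.32 on replicates 5 and 6. Replicate 3 was the only array above 0. Its turned estimate of -0.58 ± 0.35 (SE, n = 4; limma adjusted p = 0.972) was the lowest of the 23 in that reading, and as deposited the estimate was 0.055 ± 0.35 (SE, n = 4). Gabra3 ranged from -0.36 to 0.26 over 5 arrays and stood at 0.026 ± 0.15 (SE, n = 5). Gabbr1 encodes a subunit of the GABA-B receptor, which acts through a G protein. Among the fitted GABA-A genes only Gabra2 had values on both replicates 3 and 4, and it was highest there. Gabbr1 stood at 0.11, 0.058 and -0.15 in cy3 and -0.35, 0.40 and 0.29 in cy5, with replicates 3 and 4 below 0 and the other 4 above. The estimate was 0.060 ± 0.14 (SE, n = 6), and without replicates 3 and 4 it was 0.22 ± 0.066 (SE, n = 4; limma adjusted p = 0.315). The turned estimate was 0.054 ± 0.14 (SE, n = 6). Gabra4 had 0.06, 0.38 and 0.21 on replicates 2, 5 and 6, and Gabrb1 had -0.043 and 1.04 on replicates 5 and 6, too few for a fit.

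The scaffold genes held both the highest and the lowest estimates of the 23 genes. All 8 with a probe were fitted, 4 above and 4 below 0, with a median of 0.082 and 0 past the threshold, and 6 of 8 lay above 0 in the turned reading. Dlg3 encodes SAP102, the PSD-95 relative that carries NMDA receptors in immature neurons. It stood at 0.79, 0.54 and 1.59 in cy3 and at 1.52, -0.0079 and 0.79 in cy5. Only replicate 5 was not above 0, and the ranges of the orientations overlapped. These values exceeded those of 99.0%, 98.7%, 91.7%, 97.6%, 43.6% and 96.4% of the probes on replicates 1 to 6. The estimate of 0.87 ± 0.23 (SE, n = 6; limma adjusted p = 0.921) had a 95% interval of 0.33 to 1.40 and the rank 10 of 4958 by p. Without replicates 3 and 4 it was 0.53 ± 0.15 (SE, n = 4; limma adjusted p = 0.31). It was between 0.68 and 1.06 when 1 replicate at a time was left out. In the turned reading it was -0.10 ± 0.23 (SE, n = 6).

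Dlg4 encodes PSD-95, the most abundant scaffold of mature excitatory synapses. Its values were 0.086, -0.68 and 2.36 in cy3 and 1.73, 0.43 and -0.26 in cy5. Replicates 3 and 4 lay far above the others, which were on both sides of 0. The estimate was 0.61 ± 0.42 (SE, n = 6; limma adjusted p = 0.921) with these arrays and -0.11 ± 0.18 (SE, n = 4) without them. Turned, it was 0.024 ± 0.42 (SE, n = 6). Dlg2, the gene of PSD-93, was above 0 on each array, at 0.48, 0.25 and 0.015 in cy3 and 0.63, 0.05 and 0.17 in cy5. Replicates 3 and 5 were the lowest, and the estimate was 0.27 ± 0.13 (SE, n = 6; limma adjusted p = 0.921), or 0.24 without replicates 3 and 4. With replicates 1 to 3 turned Dlg2 stood at 0.018 ± 0.13 (SE, n = 6). Dlg1, the gene of SAP97, had -0.18, -0.11 and -0.67 in cy3 and -0.0077, 0.32 and 0.023 in cy5. Its cy3 and cy5 values did not overlap, and the estimates were -0.10 ± 0.13 as deposited and 0.22 ± 0.13 in the turned reading (SE, n = 6; limma adjusted p = 0.972). With so few arrays in each orientation, values can fall apart in this way by chance. For Dlg1 and for the genes below, the share of all probes without overlap was not counted, so it is a description only. The 4 Dlg genes thus gave 3 estimates above 0 and 1 below as deposited.

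Gephyrin, the product of Gphn, clusters GABA-A and glycine receptors. Gphn stood at 0.20, 0.13 and 0.22 in cy3 and at 0.64, 0.16 and 0.26 in cy5, with 5 arrays between 0.13 and 0.26 and replicate 4 above them. The estimate was 0.27 ± 0.12 (SE, n = 6; limma adjusted p = 0.921) with a 95% interval of -0.0038 to 0.54, and it was 0.20 without replicate 4. Its turned estimate was 0.085 ± 0.12 (SE, n = 6).

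The bases in front of the transcription start are shown for Gphn and Dlg2, the genes above 0 on all arrays, and for Dlg3, which had the highest estimate (picked after their values were seen). They were read from the RefSeq promoter table of build GRCm38.p6, 5′ to 3′ on the gene's own strand, as the 250 bases before the start that lies farthest upstream. Gphn has 1 listed start, Dlg2 has 3 and Dlg3 has 2. Capitals mark a match to a motif of factors that neuronal activity is known to engage. The windows lie at chr12:78226405-78226654 for Gphn, chr7:91090536-91090785 for Dlg2 and chrX:100774245-100774494 for Dlg3, each on the plus strand. Their share of G and C is 77.2%, 45.2% and 55.2%.
Gphn: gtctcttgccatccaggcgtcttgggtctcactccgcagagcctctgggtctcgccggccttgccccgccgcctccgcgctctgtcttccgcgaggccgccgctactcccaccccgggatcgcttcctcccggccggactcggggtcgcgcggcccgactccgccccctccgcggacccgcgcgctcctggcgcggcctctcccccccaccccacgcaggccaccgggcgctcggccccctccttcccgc
Dlg2: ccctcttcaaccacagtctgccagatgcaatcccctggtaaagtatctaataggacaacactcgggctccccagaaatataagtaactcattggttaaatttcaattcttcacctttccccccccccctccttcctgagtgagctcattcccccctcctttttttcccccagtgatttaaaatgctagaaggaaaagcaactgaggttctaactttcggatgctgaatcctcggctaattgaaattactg
Dlg3: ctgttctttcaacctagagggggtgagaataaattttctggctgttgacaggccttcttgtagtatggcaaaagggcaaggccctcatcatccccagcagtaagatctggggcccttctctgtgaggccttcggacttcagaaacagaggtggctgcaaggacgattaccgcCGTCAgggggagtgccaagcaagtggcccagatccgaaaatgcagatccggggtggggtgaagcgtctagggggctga

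The search covered windows from 250 bases before a start to 50 after it, on both strands, and 31 of the 42 genes matched by symbol, with 49 windows. These 49 include windows of genes without a probe, such as Grin1 and Nlgn2. The fitted genes had 33 windows, from 19 genes. The cAMP response element TGACGTCA, bound by CREB, was in 0 of the 49. It was in 1.79% of all 32851 windows in the table and in 2.16% of the 6242 windows of genes with a probe. Its core TGACG, which is part of the longer motif, was in 6 of 49 (12.2%), beside 20.8% of all and 26.2% for genes with a probe. Among the windows of fitted genes it was in 4 of 33 (12.1%). It is the match marked in the Dlg3 sequence, where it lies on the reverse strand and reads CGTCA. The window of the other listed start of Dlg3 has no match. The AP-1 motif TGAGTCA was in 0 of 49, beside 5.20% of all and 4.58% for genes with a probe. The EGR1 motif GCGTGGGCG was in 1 of 49 (2.04%), that of Shank3, beside 0.612% of all and 0.961% for genes with a probe. A match is a description of these letters and not a site in use.

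Homer2 and Homer3 encode scaffolds that join metabotropic receptors to calcium stores and to Shank proteins. Homer2 had the lowest estimate, -1.10 ± 0.44 (SE, n = 5; limma adjusted p = 0.921), from values of -3.35 and -0.59 in cy3 and 0.63, -1.13 and -0.20 in cy5. Replicate 1 lay far below the other 4, and the other cy3 value was within the range of the cy5 values. Of the probes on replicate 1, 0.134% had a lower value. Homer2 could not be fitted without replicate 1, since 1 cy3 value was left. Homer3 stood at -0.19, -0.49 and -0.56 in cy3 and at 0.34, 0.00049 and -0.035 in cy5, without overlap, and its estimates were -0.15 ± 0.12 as deposited and 0.26 ± 0.12 in the turned reading (SE, n = 6; limma adjusted p = 0.972). Shank3, a scaffold deeper in the postsynaptic density, had -1.37, -0.30 and 1.25 in cy3 and 0.54, -0.17 and -0.88 in cy5. Replicates 3 and 4 were above 0 and the other 4 below. Its estimate of -0.15 ± 0.34 (SE, n = 6) became -0.68 ± 0.22 (SE, n = 4; limma adjusted p = 0.328) without replicates 3 and 4 and 0.15 without replicate 1. The turned estimate was -0.015 ± 0.34 (SE, n = 6).

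Calcium signalling behind the receptors was represented by the kinase CaMKII. Camk2b, the subunit expressed early, had -0.026, -0.17 and -0.42 in cy3 and -0.011, 0.21 and 0.059 in cy5 with 1 probe, where the orientations did not overlap. With its other probe it had -0.19 and -0.069 on replicates 1 and 2 and -0.85, 0.20 and 0.29 in cy5. The 2 probes had the same sign on all 5 arrays with both values and differed most on replicate 4. Their estimates were -0.058 ± 0.11 (SE, n = 6) and -0.12 ± 0.21 (SE, n = 5). Camk2a, the subunit that grows after birth, had values on replicates 1 and 2 only, at -0.72 and -0.48.

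Of the adhesion genes only Nrxn2 and Nrxn3 had probes. Neurexins act on the presynaptic side as partners of neuroligins. Nrxn3 lay at -0.07, 0.36 and 0.094 in cy3 and at 1.08, 0.25 and 0.12 in cy5, with 5 of 6 arrays above 0 and replicate 4 highest. The estimate was 0.31 ± 0.16 (SE, n = 6; limma adjusted p = 0.921), or 0.16 without replicate 4, and the turned estimate was 0.18 ± 0.16 (SE, n = 6). Nrxn2 lay at -0.49, -0.15 and -0.35 in cy3 and at -0.15, 0.34 and 0.40 in cy5. Its cy3 arrays were all below 0 and replicates 5 and 6 above. The estimate was -0.066 ± 0.13 (SE, n = 6) as deposited and 0.26 ± 0.13 (SE, n = 6; limma adjusted p = 0.972) in the turned reading.

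**Figure D2:**
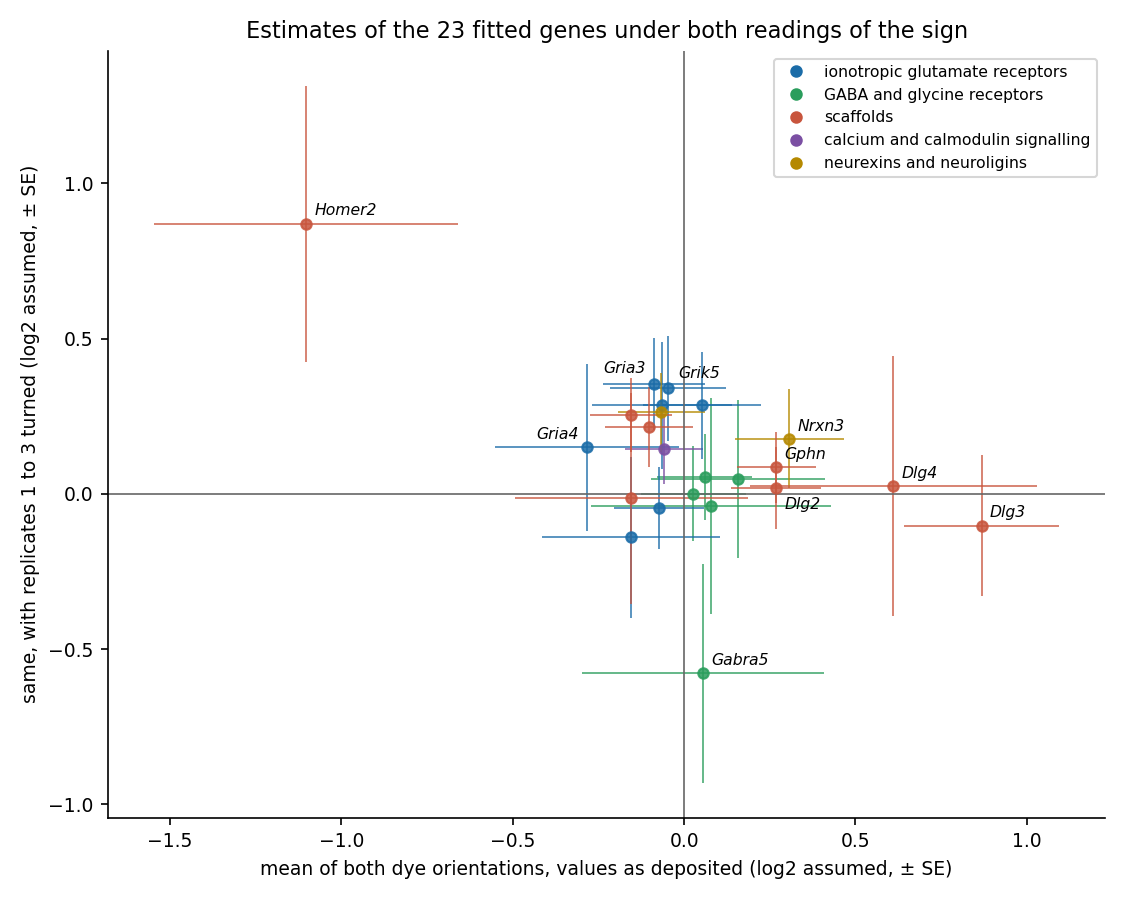
Estimates of the 23 fitted genes with the values as deposited (horizontal) and with replicates 1 to 3 turned (vertical), on the assumed log2 scale; bars are standard errors and colours are roles. Dlg3 at 0.87 and Dlg4 at 0.61 stand out on the horizontal axis only, Gabra5 at -0.58 on the vertical axis only, and Homer2 on both, at -1.10 and 0.87.

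In size, the roles differed most from each other on replicate 3, which is also the array with the widest spread of values. Its standard deviation over all probes was 1.09, against 0.41 on replicate 5, and the medians given here are not scaled for this. On replicate 3 the median was -0.93 over the ionotropic glutamate receptors, 0.91 over the GABA receptors and 0.22 over the scaffolds, beside -0.30 over all genes fitted. Of the 7 glutamate receptor genes, 1 lay above 0 there, that of Gria1. Of the 4 GABA receptor genes with a value, 3 lay above 0, and of the 7 scaffold genes, 5 did, where 38.3% of all genes were above 0. Replicate 4 kept only part of this order. Its medians were 0.12 for the glutamate receptors, 0.18 for the GABA receptors and 0.63 for the scaffolds, of which 7 of 8 lay above 0, beside -0.13 and 39.4% over all genes. On replicate 5 the GABA receptors were lowest, with a median of -0.64, while the glutamate receptors were at 0.28 and the scaffolds at 0.025. Over replicates 1, 2 and 6 the medians of the 3 roles stayed between -0.20 and 0.26. The medians of replicate 3 have the opposite signs in the turned reading. The difference between roles was not tested. Without replicates 3 and 4 the median estimates were 0.12 for the glutamate receptors, -0.10 for the GABA receptors and -0.045 for the scaffolds.

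**Figure D3:**
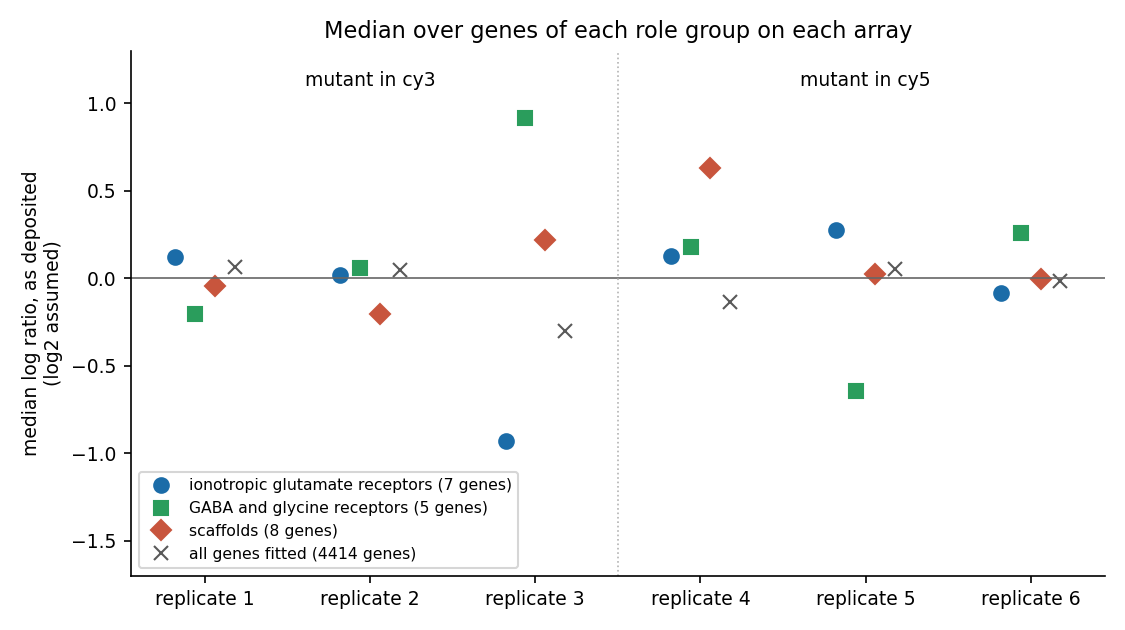
Median log ratio, as deposited, over the fitted genes of 3 roles with a value on each of the 6 arrays, with the median of all 4414 genes fitted as crosses. The spread between roles is widest on replicate 3, from -0.93 to 0.91, which is also the array whose values spread most over all probes. The medians are not scaled for this, and the roles change order from array to array.

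Markers of other cells moved on the same arrays, and their part in these values was not tested. All 8 fitted neuronal markers had estimates below 0 as deposited, with a median of -0.18, and 6 of 8 above 0 in the turned reading, with a median of 0.29, and none was past the threshold. Of all genes fitted, 43.1% lay above 0 as deposited and 53.2% in the turned reading. The median of the neuronal markers on replicate 3 was -1.04, as deposited, beside the -0.93 of the glutamate receptors and -0.30 over all genes. On the other arrays it lay between -0.28 and 0.18, and above 0 on replicates 5 and 6. Estimates without replicates 3 and 4 are not given for the markers. Among the 7 markers of cortical projection neurons the median on replicate 3 was -0.86, but Emx1 stood at 1.94 and 1.37 on replicates 3 and 4. The 7 progenitor markers had a median of -0.57 on replicate 3, and the 7 of interneurons and the ganglionic eminence, cells that make GABA, one of 0.35. Both lists split on that array. Sox2, Hes1 and Eomes lay above 0 among the progenitor markers. Among the interneuron markers Dlx1 lay at -1.41, Gad2 at -0.30 and Dlx2 at -0.21, and Lhx6, Gad1, Dlx5 and Six3 lay between 0.35 and 0.93. As deposited, 1, 3 and 2 genes of the projection neuron, progenitor and interneuron lists had estimates above 0, and in the turned reading 5, 2 and 2. On replicate 3 the microglial gene C1qb stood at 5.06 and on replicate 4 at 2.41, while the other fitted microglial marker, Aif1, stood at -0.50 and -0.27. For the 3 fitted genes listed as glial markers, all with estimates below 0 as deposited and 2 above 0 turned, the medians ran from -3.02 on replicate 1 to 1.16 on replicate 3. Which cells of this tissue carry them was not checked. These 3 genes did not move together. On replicates 1 and 3 Olig2 stood at -0.19 and -1.53, Mbp at -3.02 and 1.97 and Slc1a3 at -4.97 and 1.16. The 5 meningeal and vessel markers, 1 with an estimate above 0 as deposited and 5 turned, had medians between -0.63 and 0.39, and the 2 erythroid markers, both with estimates below 0 as deposited and above 0 turned, medians between -0.17 and 0.018. The table holds ratios and no levels, so whether the tissue expressed a marker could not be checked.

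Across the fitted genes, Pearson's r between replicates 3 and 4 was 0.823 as deposited, the highest of the 15 pairs, and -0.823 in the turned reading, the lowest, over 18 genes. It was 0.576 between replicates 1 and 2 over 22 genes and 0.341 between replicates 5 and 6 over 23 genes, in both readings. Over all probes these pairs gave 0.364 and 0.211. Replicates 1 and 5, of opposite dyes, gave 0.595 as deposited and -0.595 turned, over 22 genes. Over all probes that pair gave 0.055 as deposited. Replicates 3 and 5 gave -0.453 as deposited and 0.453 turned, over 21 genes, and -0.365 as deposited over all probes. These correlations are descriptions across genes of arrays that share the same pool, and genes are not independent replicates. On replicate 3, 7 of 21 genes lay beyond 1 in size (33.3%), beside 28.8% of all probes, and on replicate 4, 4 of 20 (20.0%), beside 7.53%. On replicates 2 and 6 none did.

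**Figure D4:**
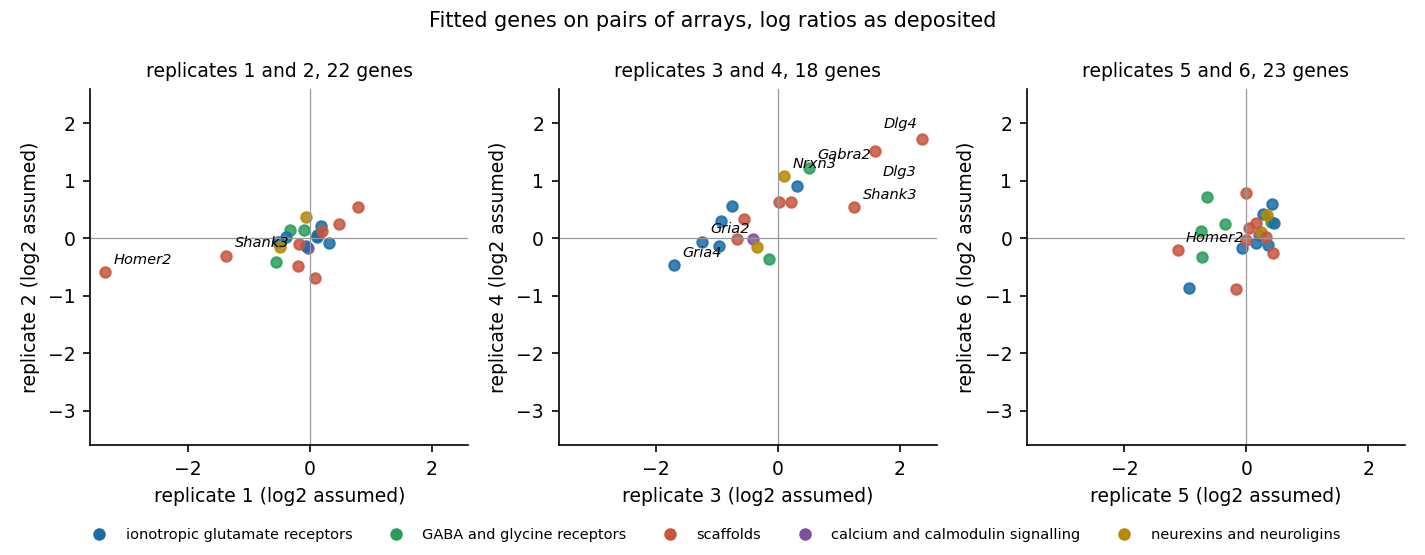
Log ratios, as deposited, of the fitted genes on replicates 1 and 2 (22 genes), 3 and 4 (18 genes) and 5 and 6 (23 genes), with 1 point per gene coloured by role and names for values beyond 1 in size. Points follow a rising line on replicates 3 and 4, from Gria4 to Dlg4, and most lie near 0 in the other pairs, where Homer2 and Shank3 on replicate 1 and Homer2 on replicate 5 lie beyond 1 in size.

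Leaving out replicates 3 and 4 changed which genes had small p-values. In that fit 9 of 23 probes had an unadjusted limma p under 0.05, beside 13.6% of 4728 probes. Gria2, Grik5, Gabbr1, Dlg2, Dlg3 and Gphn were above 0 there, between 0.19 and 0.53, and Gria1, Shank3 and Homer2 below, at -0.54, -0.68 and -1.32. The adjusted p of these genes lay between 0.3 and 0.361, so 0 passed. With replicates 1 and 2 turned as well, 4 of 23 probes had an unadjusted p under 0.05, beside 23.4% of all. As deposited, Xist stood at 0.61 and 0.71 on replicates 1 and 2 and at -3.17 and -2.58 on replicates 5 and 6. On these arrays the dye orientation and the difference in Xist cannot be told apart.

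Other genes of the postsynaptic side were taken for comparison. From a list of 100 such genes, 42 had a probe and 28 were fitted, 12 above and 16 below 0 with a median of -0.081, or 16 above 0 with a median of 0.017 in the turned reading, and 0 passed in either reading. In each reading 2 of them had an unadjusted p under 0.05, and they were the same genes. Camk2d, another CaMKII subunit, stood at -1.62 and -2.27 in cy3 and at -0.22, -0.23 and 0.38 in cy5, with no overlap of the orientations. Its estimates were -0.98 ± 0.17 as deposited and 0.96 ± 0.17 turned (SE, n = 5; limma adjusted p = 0.921 and 0.972). Calm3, a calmodulin gene, had the same shape, at -0.94 and -0.88 in cy3 and -0.088, -0.51 and 0.28 in cy5. Of 30 fitted genes of synaptic vesicles and release, 12 lay above 0 as deposited, with a median of -0.095, and 16 in the turned reading, with a median of 0.032. Of 28 ion channel genes, 13 lay above 0 as deposited, with a median of -0.026, and 14 turned, with a median of 0.0057. In both lists 0 genes passed in limma. At an unadjusted p under 0.05 there were 0 vesicle genes and 2 ion channel genes as deposited, and 2 and 1 in the turned reading.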

How the data were processed

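Neocortex RNA of 6 null mutant embryos was measured on 6 arrays of 2 colours against 1 wild-type pool. The mutated gene itself is not reported here. The authors deposited a table of log ratios per probe, read here as log2 values; per the labels, dyes were swapped on 3 arrays. How the ratios were corrected for background and normalized, and their base and direction, is not given in the sources used here. Base 10 would put the largest size, 7.84, beyond a scanner's range, and a natural logarithm remains possible. Array means lay within 0.01 of 0. Intensities were not used here, so dim probes could not be removed.

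All 30 member probes matched the reference table of GRCm38.p6 by gene identifier. The model, run in R 4.3.3 with limma 3.58.1 (lmFit, then eBayes), had the mean over both orientations and the orientation itself as terms, and took probes that held 2 or more values per orientation. Tests were two-sided with Benjamini-Hochberg adjustment over 4958 probes and a threshold of 0.05. The orientation term is the mutant effect when replicates 1 to 3 are turned. Samples lacking a value were dropped for that probe. One probe stands for a gene, that with the most values. The fit was tested on simulated normal values with the widths and missing values of these arrays. They had no correlation between arrays and no orientation effect, so the count of 0 draws no support from that run. Members and lists were chosen with earlier results of these data known. All fitted members are named; values on each array are given for the 3 smallest p of a role in either reading, for 1 sign on all arrays and for the widest range, with others added where they help. The precision is limited by the number of arrays. Alternatives were the turned reading, no orientation term, centring, scaling, complete probes, array weights, no moderation, a threshold of 0.1 and arrays left out.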

Additional observations from a re-analysis of the deposited data

Results flagged for a closer look

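Of 30 sets of array values examined, those of 24 fitted probes and of 6 medians over genes, 5 had 1 array far from the rest by Dixon's criterion. The rate by chance, about 1 in 20, holds only where all arrays have the same spread. Here the standard deviation over all probes ran from 0.35 on replicate 2 to 1.09 on replicate 3, so the 5 cannot be set against that rate. As deposited, replicate 3 was the low array for Gria2 at -1.25, Gria4 at -1.71 and Grik2 at -0.93. It was also the low array for the median of the ionotropic glutamate receptors, at -0.93, which is the value of Grik2. Replicate 4 was the high array for Gphn, at 0.64. These are not independent, since 4 of the 5 come from replicate 3, the widest array. They depend on the direction, which is not settled. With replicates 1 to 3 turned, a check added after the data were seen, 3 of 30 sets met the criterion. They were Gria4, where replicate 3 is then the high array at 1.71, the probe of Camk2b with 5 values, with replicate 4 at -0.85, and the median over the 23 genes, with replicate 4 at 0.44. The low value of Homer2 on replicate 1, -3.35, did not meet the criterion as deposited.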

How the results depend on the processing

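No receptor, scaffold or adhesion probe had an adjusted limma p under 0.05 under any alternative run, in either reading. As deposited the lowest was 0.274, for Dlg3 with array weights. In the turned reading, set against the alternatives after the data were seen, Nrxn2 (0.0877) and Grik5 (0.0879) were under 0.1 with array weights. Over all probes the count of 0 became 2 with array weights and 1 with replicates 3 and 4 left out, and the count for the turned reading, 0, became 31 with array weights; the cause was not tested. Of the 23 genes, Gphn, Dlg2 and Nrxn3 kept their sign in the 13 alternatives run for them, and Grik1 in the 10 it could be fitted in. With replicates 1 to 3 turned, 13 changed sign: Gria2 0.29, Gria3 0.35, Gria4 0.15, Grik5 0.34, Gabra3 -0.00022, Gabra5 -0.58, Gabrb2 -0.039, Dlg1 0.22, Dlg3 -0.10, Homer2 0.87, Homer3 0.26, Camk2b 0.15 and Nrxn2 0.26. With arrays centred and scaled, Gria2 stood at 0.10, Grik5 at 0.070, Gabra5 at -0.32 and Gabrb2 at -0.17. With array weights, Gria2 stood at 0.19, Gria4 at 0.073, Grik5 at 0.18, Gabra2 at -0.055, Gabra5 at -0.40, Gabrb2 at -0.11, Dlg4 at -0.11 and Nrxn2 at 0.029. With replicates 3 and 4 left out, 10 changed sign: Gria2 0.23, Gria4 0.12, Grik5 0.20, Gabra2 -0.20, Gabra3 -0.012, Gabrb2 -0.22, Dlg1 0.015, Dlg4 -0.11, Camk2b 0.020 and Nrxn2 0.025. With 1 replicate left out at a time, values that crossed 0 ranged from -0.46 to 0.0051 for Gria1, -0.19 to 0.16 for Gria2, -0.18 to 0.0093 for Gria3, -0.45 to 0.035 for Gria4, -0.084 to 0.23 for Grik2, -0.13 to 0.097 for Grik5, -0.099 to 0.39 for Gabra2, -0.031 to 0.12 for Gabra3, -0.22 to 0.25 for Gabrb2, -0.012 to 0.18 for Gabbr1, -0.50 to 0.15 for Shank3 and -0.12 to 0.020 for Nrxn2. Genes lacking values were fitted in fewer alternatives, Grik1, Gabra3, Gabrb2 and Homer2 in 10 of 13 and Gabra5 in 7. Signal over background was not used here, so dim probes are not known.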
